A study of Homo sapiens with 6 samples.

Results

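K562 cells are a chronic myeloid leukemia (CML) line driven by the BCR-ABL fusion kinase, and the 10 genes described here encode the chain from that kinase to its transcriptional output. They are the fusion partners BCR and ABL1, the adaptors CRKL, GAB2 and GRB2, the transcription factors STAT5A and STAT5B, and the STAT5 outputs PIM1, SOCS2 and CISH. The 10 genes were taken by symbol from a count table of 24960 genes, in which all 10 were present, and all 10 passed the filter on low counts. The control group held 3 libraries of K562 cells labelled as control, and the hyperoside group held 3 libraries of K562 cells given hyperoside, a plant flavonol glycoside. The labels name no dose, and the text of the paper gives 2 mM. Both groups were the same cell line, grown in RPMI-1640 with 10% fetal bovine serum, and how long the cells were exposed before RNA extraction was not given in the sources used here. The labels do not say whether the replicates came from separate cultures, so the p-values measure only the spread between these libraries, which may be technical. The library totals were 35613283 to 36754725 counts, and each of the 10 genes had between 2436 and 56156 counts in every library.

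In CML cells, the fused kinase phosphorylates itself and its neighbours, and adaptors dock there to pass the signal on. GRB2 binds a phosphorylated tyrosine in the BCR part and brings in GAB2 and the RAS pathway, while CRKL is an abundant direct substrate whose phosphorylation is used as a readout of kinase activity. STAT5A and STAT5B are phosphorylated, enter the nucleus and switch on PIM1, a survival kinase, together with SOCS2 and CISH, members of the SOCS family that feed back on cytokine signalling. Because phosphorylation carries this signal, transcript counts show the supply of the components and the level of the output genes, and kinase activity was not measured by them. In bulk RNA, a change in the make-up of the cells and a change in RNA per cell cannot be told apart.

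The 3 outputs were lower in the hyperoside group, CISH by the most, while STAT5A, CRKL and GAB2 were higher, GRB2 was lower, and BCR, ABL1 and STAT5B did not pass the test. A gene was called at an adjusted p under 0.05 in edgeR's quasi-likelihood test across all 15095 tested genes. By that rule 3 of the 10 genes were called higher, beside 22.1% of all tested genes, and 4 were called lower, beside 23.2%. In either direction 7 of the 10 were called, beside 45.3% of all tested genes. Differentially expressed genes (DEGs) also had to change by more than 2-fold, and 0 of the 10 genes met this rule, beside 10.2% of all tested genes (6.43% higher and 3.76% lower). DESeq2 and limma also gave 0 DEGs among the 10, while 8 of the 10 had an unadjusted p under 0.05 in edgeR, beside 52.2% of all tested genes. The normalized values of the groups did not overlap in 9 of the 10 genes, with STAT5B as the exception, beside 54.4% of all tested genes (27.1% higher and 27.3% lower). All of these shares include genes with few counts, whereas the 10 genes had at least 2436 counts in each library. Shares among genes of similar abundance were not computed. The median log2 fold change (log2FC, hyperoside over control) of the 10 genes was 0.02, and that of all tested genes was 0.0032.

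**Figure D1:**
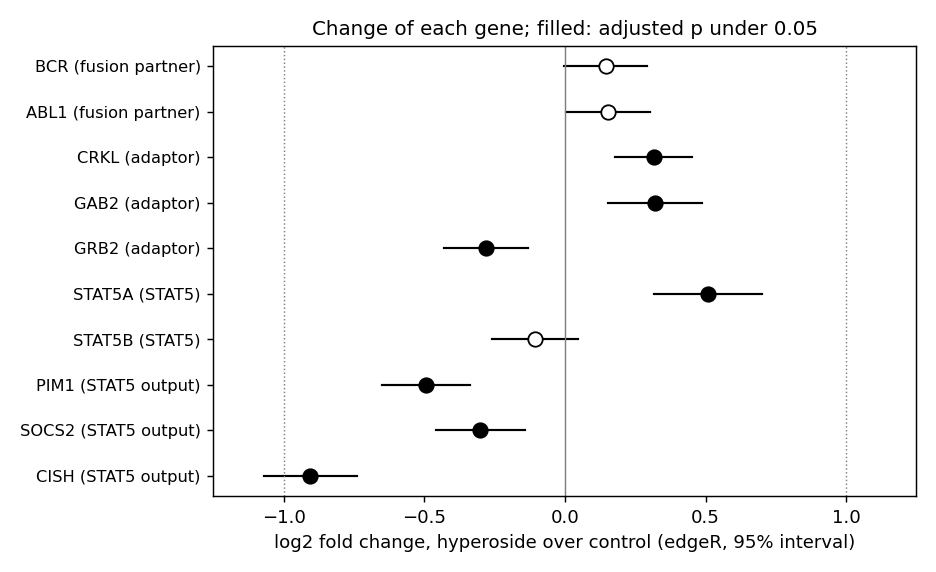
The log2 fold change (log2FC) of each of the 10 genes (x axis, hyperoside over control, from edgeR) with its 95% interval from 3 libraries a group; filled points passed an adjusted p of 0.05, and dotted lines mark a 2-fold change. CISH, PIM1, SOCS2 and GRB2 lie below 0, STAT5A, GAB2 and CRKL above 0, and no point reaches a dotted line.

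BCR (GRCh38 chromosome 22, 23179704 to 23318037, plus strand) supplies the front of the fusion protein. ABL1 (chromosome 9, 130713946 to 130887675, plus strand) supplies the tyrosine kinase. A read from the fusion transcript counts towards whichever of these genes it falls in, so gene counts do not separate the fusion from the normal alleles. BCR had 113.7, 113.7 and 115.1 normalized counts in CPM, that is, relative to the scaled total of each library, in control replicates 1, 2 and 3. It had 121.2, 129.2 and 128.4 CPM in hyperoside replicates 1, 2 and 3, all above the highest control library. The log2FC of BCR was 0.15 (standard error, SE, 0.07, 95% interval -0.0015 to 0.29), with an adjusted p of 0.0992, so BCR was not called. ABL1 had 264, 247 and 239.6 CPM in the control replicates, against 266.8, 295.4 and 272.1 CPM in those given hyperoside. Hyperoside replicate 1 thus lay just above control replicate 1, and the other hyperoside libraries were clear of the control range. The log2FC of ABL1 was 0.15 (SE 0.07, 95% interval 0.0032 to 0.30), and its adjusted p was 0.0890.

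Whether BCR and ABL1 passed the threshold depended on the scaling between libraries, which moved all genes alike. With library totals alone, the adjusted p from edgeR was 0.0273 for BCR and 0.0185 for ABL1, and the log2FCs were 0.19 and 0.20. The median log2FC of all tested genes moved from 0.0032 to 0.0526 under the same scaling, and the share of calls that were higher from 48.7% to 55.7%. Without control replicate 1, ABL1 had a log2FC of 0.20 and an edgeR adjusted p of 0.0133, whereas BCR remained at 0.0646. A ratio within a library needs no such scaling. FPKM relates counts to gene length as well as to depth. On this scale the BCR to ABL1 ratio was 0.444, 0.474 and 0.495 in the control replicates, against 0.468, 0.451 and 0.486 in those given hyperoside. These ranges overlapped, with means of 0.471 ± 0.026 and 0.469 ± 0.018 (SD, n = 3 each). The log2 difference was -0.0069, and the two-sided p was 0.9 by exact permutation of the libraries (20 regroupings). Of the distinct stretches of 100 bases in annotated BCR transcripts, 6.87% also occur in transcripts of 9 other genes, among them the pseudogene BCRP2, and none of those of ABL1 occurs in another gene. Whether reads from such a stretch were dropped or assigned to a locus was not given in the sources used here.

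**Figure D2:**
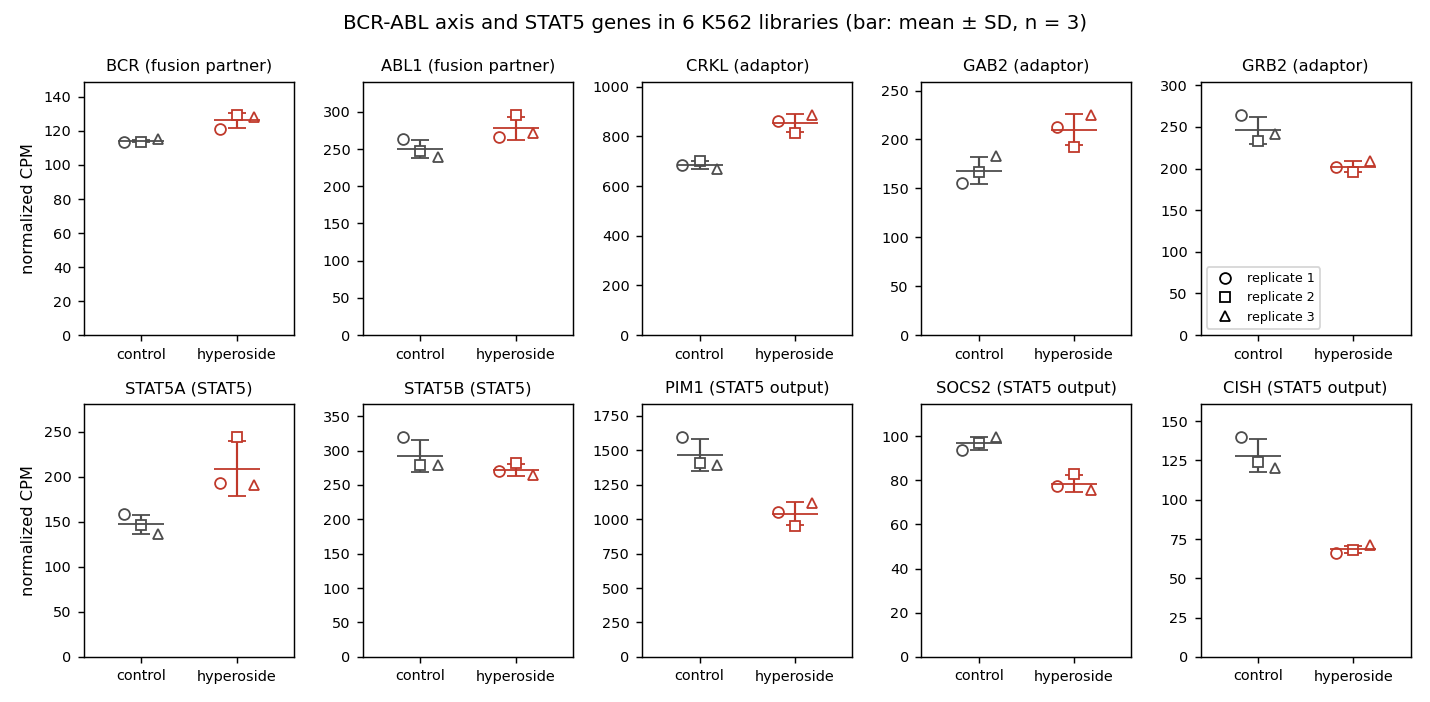
Normalized CPM (y axes, each starting at 0) of the 10 genes in the 3 control and 3 hyperoside libraries, with a symbol for each replicate and the mean ± SD. The groups overlap for STAT5B alone, and STAT5A shows the widest spread relative to its mean among the hyperoside libraries.

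Among the adaptors, CRKL and GAB2 rose and GRB2 fell. CRKL (chromosome 22, 20917426 to 20953749, plus strand) had 686.3, 699.4 and 669.8 CPM in the control replicates. In hyperoside replicates 1, 2 and 3 the values were 859.8, 813 and 884.6 CPM, so the lowest hyperoside library was well above the highest control library. The hyperoside mean was 124% of the control mean, a log2FC of 0.32 (SE 0.06, adjusted p = 6.68e-04). GAB2, the docking protein that recruits PI3 kinase and the phosphatase encoded by PTPN11, maps to chromosome 11 (78215297 to 78418348, minus strand). Its control values were 155.3, 166.4 and 182.6 CPM, and its hyperoside values were 212.6, 192.7 and 224.7 CPM. The libraries did not overlap, although hyperoside replicate 2 was only a little above control replicate 3. For GAB2 the log2FC was 0.32 (SE 0.08, adjusted p = 0.00317). PTPN11 itself had 220.1 ± 11.2 and 197.5 ± 9.26 CPM (SD, n = 3 each) and did not pass the test, at an edgeR adjusted p of 0.0833.

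GRB2 (chromosome 17, 75318076 to 75405709, minus strand) moved the other way. The control replicates had 263.9, 232.6 and 241.4 CPM and the hyperoside replicates 202.2, 195.9 and 209 CPM. Every hyperoside library was below the lowest control library. The hyperoside mean was 82.3% of the control mean, and the log2FC was -0.28 (SE 0.07, adjusted p = 0.00373). All 3 adaptors kept their direction and their call in each of 15 alternative settings.

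STAT5A and STAT5B are adjacent genes on chromosome 17 with opposite orientation. STAT5B runs from 42199168 to 42276707 on the minus strand, STAT5A from 42287547 to 42311943 on the plus strand, and 10839 bases lie between them. STAT5A rose from 158.2, 145.9 and 136.5 CPM in the control replicates to 192.7, 243.8 and 190.2 CPM in the hyperoside replicates. Hyperoside replicate 2 was far above the other two hyperoside libraries, which were themselves above all control libraries. STAT5A had a log2FC of 0.51 (SE 0.09, adjusted p = 2.12e-04). Without hyperoside replicate 2 it was 0.38, with an edgeR adjusted p of 0.00217. STAT5B had 319.6, 279.5 and 279 CPM in the control replicates, against 270.3, 281.3 and 264 CPM in those given hyperoside. Hyperoside replicate 2 exceeded 2 of the control libraries, and the groups overlapped. STAT5B was not called, with a log2FC of -0.11 (SE 0.07, adjusted p = 0.245) and a 95% interval from -0.26 to 0.05.

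On the lengths implied by the deposited FPKM, 4301 bases for STAT5A and 6427 for STAT5B, the order of the paralogues differed between the groups. In normalized CPM, which does not use length, STAT5B was higher in both groups. The means for STAT5B and STAT5A were 292.7 and 146.9 CPM for control, and 271.8 and 208.9 for hyperoside. The order in the hyperoside group thus depends on the lengths. The annotated exons cover 5754 bases for STAT5A and 6447 for STAT5B, and FPKM on these lengths was not computed. In deposited FPKM, STAT5A had 33.5 ± 1.68 and STAT5B 44.7 ± 2.50 for control, against 49.4 ± 7.19 and 43.0 ± 1.54 for hyperoside (SD, n = 3 each). The lowest STAT5A value for hyperoside was 44.6 FPKM, just above the highest STAT5B value of 44.5. The share of STAT5A in their summed FPKM was 42.5%, 43.8% and 42.2% in the control replicates, against 51.6%, 56.4% and 51.8% in the hyperoside replicates. All hyperoside libraries were above all control libraries, and the shift was 10.4 percentage points (two-sided p = 0.1 by exact permutation, which with 3 libraries against 3 cannot go lower). After Benjamini-Hochberg adjustment over 4 such within-library measures, this p was 0.2. Without hyperoside replicate 2 the shift was 8.86 points, and with normalized CPM in place of FPKM it was 9.89 points. The summed FPKM of both paralogues was 78.2 ± 3.97 (SD, n = 3) for control and 92.4 ± 8.59 (SD, n = 3) for hyperoside. In FPKM as deposited these sums did not overlap (exact permutation p = 0.1). The deposited FPKM is relative to library totals, without the scaling factors used for normalized CPM. Those factors were 0.957 for control replicate 1 (summed FPKM 82.8) and 1.01 for hyperoside replicate 3 (86.0). A lack of overlap after such scaling was thus not shown. The paralogues share 371 stretches of 100 bases, which is 6.14% of the distinct stretches of STAT5A and 5.67% of those of STAT5B. How reads from them were counted was likewise not given.

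**Figure D3:**
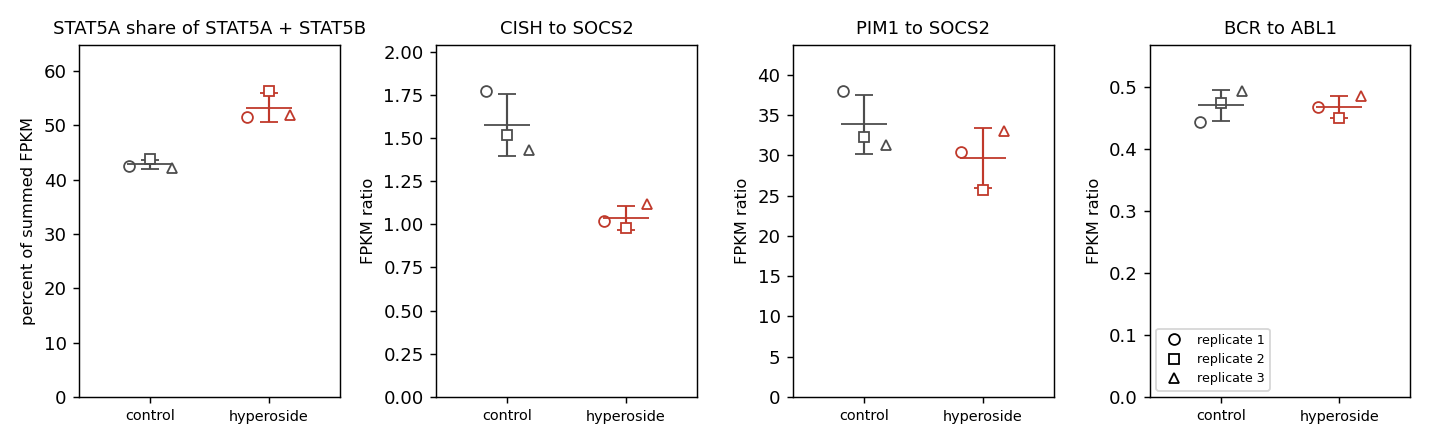
Within-library measures in the 3 control and 3 hyperoside libraries (symbols for replicates, mean ± SD, y axes from 0): the STAT5A share of summed STAT5 FPKM in percent, and the FPKM ratios of CISH to SOCS2, PIM1 to SOCS2 and BCR to ABL1. The first pair of panels separates the groups, and in the other pair the groups overlap.

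All 3 STAT5 outputs were called lower. CISH (chromosome 3, 50606490 to 50611831, minus strand) encodes a feedback inhibitor of cytokine receptors. Its promoter is shown because CISH changed the most and because the letters of the STAT5 recognition motif, TTCNNNGAA, recur in it. The stretch runs from 250 to 91 bases upstream of the RefSeq start (GRCh38.p14, chr3:50611865-50612024, minus strand), with the matches to the motif in capitals.
CISH promoter: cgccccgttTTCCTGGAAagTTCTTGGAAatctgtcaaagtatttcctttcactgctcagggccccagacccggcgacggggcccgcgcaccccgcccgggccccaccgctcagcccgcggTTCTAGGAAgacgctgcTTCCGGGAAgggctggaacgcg
The motif reads the same on both strands, and the 4 matches do not overlap one another. A match was found in 7.66% of 35116 RefSeq promoter windows of 300 bases, and 7 windows held 4 matches, the most in any window. RefSeq windows were matched for 9 of the 10 genes, 12 windows in all, and none was given for SOCS2. CISH was the only one of the 9 genes with a match, which says only that these letters do not occur in the windows of the others. These are matches of letters, and binding was not measured.

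CISH had 139.9, 124.3 and 120.3 CPM in the control replicates. It had 66.4, 68.0 and 71.0 CPM in the hyperoside replicates, a narrow range far below all control libraries. The hyperoside mean was 53.4% of the control mean, with a log2FC of -0.90 (SE 0.08, 95% interval -1.07 to -0.74, adjusted p = 7.04e-08). By p, CISH ranked 250 among the 15095 tested genes, and 15.3% of these genes had a larger log2FC in either direction. Its exons overlap those of MAPKAPK3 on the opposite strand over 218 of 5112 bases, and the use of strand in counting was not given in the sources used here. MAPKAPK3 averaged 44.4 CPM for control and 45.5 for hyperoside, with a log2FC of 0.03 (SE 0.09, adjusted p = 0.791).

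PIM1 (chromosome 6, 37170203 to 37175426, plus strand) was the most abundant of the 10 genes per length. It had 1597, 1406 and 1396 CPM in the control replicates, against 1055, 951.7 and 1117 CPM in those given hyperoside, with no overlap. The hyperoside mean was 71.0% of the control mean, and the log2FC was -0.49 (SE 0.07, adjusted p = 3.70e-05). SOCS2 (chromosome 12, 93569814 to 93583487, plus strand) had 93.6, 97.1 and 99.6 CPM in the control replicates. In the hyperoside replicates it had 77.4, 82.7 and 75.5 CPM, below every control library. The hyperoside mean of SOCS2 was 81.2% of the control mean, with a log2FC of -0.30 (SE 0.07, adjusted p = 0.00324). Its exons overlap SOCS2-AS1 on the opposite strand over 277 of 6776 bases, and SOCS2-AS1 had at most 106 counts in a library.

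CISH and SOCS2, both of the SOCS family, were set against each other within each library. Their FPKM ratio was 1.78, 1.52 and 1.43 in the control replicates, against 1.02, 0.976 and 1.12 in those given hyperoside. On the deposited lengths, CISH thus went from above SOCS2 to about its level. In normalized CPM, which does not use length, the hyperoside means were 68.4 for CISH and 78.6 for SOCS2. The change of the ratio does not depend on the lengths. The log2 difference of the ratio was -0.60, with a two-sided exact permutation p of 0.1, the smallest possible here, and 0.2 after adjustment over the 4 measures. The PIM1 to SOCS2 ratio was 38.1, 32.3 and 31.3 in the control replicates, against 30.4, 25.7 and 32.98 in those given hyperoside. These groups overlapped (exact permutation p = 0.3, adjusted p = 0.4), and at this number of libraries a difference between PIM1 and SOCS2 was not shown.

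In FPKM, the control order ran from PIM1 (532.5 ± 28.4) through CRKL (126 ± 3.24), GRB2 (73.8 ± 3.46), STAT5B, ABL1 (35.1 ± 0.893), STAT5A, CISH (24.8 ± 1.39), GAB2 (22.7 ± 2.39) and BCR (16.5 ± 0.491) to SOCS2 (15.8 ± 0.872; SD, n = 3 each). The neighbours ABL1 and STAT5A, CISH and GAB2, and BCR and SOCS2 overlapped between libraries of that group. In the hyperoside group PIM1 (391.6 ± 30.2 FPKM), CRKL (162.2 ± 6.53) and GRB2 (62.9 ± 1.81) remained first, and STAT5A came next on the deposited lengths. CISH moved from the seventh to the ninth place, at 13.7 ± 0.358 FPKM, and overlapped with SOCS2 at 13.3 ± 0.663. All 10 genes were abundant, since the least abundant had a mean CPM above that of 83.4% of the tested genes. The coefficient of variation within a group ran from 0.704% for BCR in the control group to 14.5% for STAT5A in the hyperoside group.

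The genes whose profile over the 6 libraries was nearest to that of CISH, among 11345 other genes averaging 100 or more normalized counts, were ARFGAP1, ADAMTSL4 and SLC25A1. Their centred log2 CPM differed from that of CISH by a root mean square of 0.0226, 0.0362 and 0.0367, and their log2FCs were -0.92, -0.88 and -0.87. The genes nearest to STAT5A were LSG1, C8orf82 and KCNH2, at distances of 0.0414, 0.0424 and 0.0486, with log2FCs of 0.48, 0.45 and 0.55. For CISH and STAT5A alike, the genes were picked by this distance, so the closeness of the log2FCs follows from the choice. C8orf82 lost its call without hyperoside replicate 2, with a log2FC of 0.31 and an edgeR adjusted p of 0.0838.

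Around the kinase, 23 of 24 listed genes of BCR-ABL1 proximal signalling were tested. Of these, 11 were called higher and 1 lower, or 52.2% called beside 45.3% of all tested genes, and the median log2FC was 0.18. Of the genes called higher, INPP5D, PIK3R1 and DOK1 had the smallest adjusted p. INPP5D, the lipid phosphatase SHIP1 that counters PI3 kinase, rose from 7.05 ± 1.05 to 19.3 ± 1.75 CPM (SD, n = 3 each), with a log2FC of 1.45 (adjusted p = 1.59e-07). PIK3R1, a regulatory subunit of PI3 kinase, rose from 21.8 ± 3.68 to 42.6 ± 2.68 CPM (SD, n = 3 each), with a log2FC of 0.97 (adjusted p = 2.31e-06). DOK1, an inhibitory docking protein, had a log2FC of 0.55 (adjusted p = 9.22e-04). The 1 gene called lower was GRB10, an adaptor of receptor kinases, at -0.75 (adjusted p = 8.53e-07). Without control replicate 1, 3 genes of the list were called lower, and among all tested genes 3618 in place of 3508. Among close homologues of the 10 genes, CRK, the relative of CRKL, had a log2FC of 0.25 (adjusted p = 0.0187). CRK lost its call without control replicate 2 (adjusted p = 0.0858), hyperoside replicate 2 (0.0562) or hyperoside replicate 3 (0.0669). ABL2 and GAB1 were not called, at 0.02 (adjusted p = 0.883) and -0.16 (adjusted p = 0.291), and the sign of ABL2 turned without control replicate 1 (-0.07) or hyperoside replicate 2 (-0.0061).

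Upstream of STAT5 in cytokine signalling, 12 of 15 listed receptors, Janus kinases (JAKs) and other STATs were tested. There were 4 called higher and 2 lower (50% called beside 45.3% of all tested genes, median log2FC 0.08). KIT, the stem cell factor receptor, rose from 29.9 ± 5.93 to 123.7 ± 8.03 CPM (SD, n = 3 each), for a log2FC of 2.05 (adjusted p = 2.83e-10). EPOR, the erythropoietin receptor, rose from 7.43 ± 0.517 to 17.3 ± 1.03 CPM (SD, n = 3 each), for a log2FC of 1.22 (adjusted p = 4.65e-07). STAT6 was higher by 0.84 on the log2 scale (adjusted p = 2.39e-07). TYK2 was lower by a log2FC of -0.31 (adjusted p = 0.00156), and JAK3, with at most 78 counts in a library, by -1.85 (adjusted p = 0.00317). JAK1 and JAK2 were not called, with adjusted p of 0.942 and 0.207, and neither were STAT2, STAT3 and STAT4, at 0.120, 0.385 and 0.389.

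All 15 listed inhibitors and phosphatases of the STAT5 path were tested, with 5 called higher and 5 lower (median log2FC 0.14). This was 66.7% called, beside 45.3% of all tested genes (22.1% higher and 23.2% lower). Without hyperoside replicate 1, 2 were called higher, and among all tested genes 2700 in place of 3333. SOCS3, a relative of SOCS2 and CISH that inhibits JAKs, fell from 23.3 ± 2.24 to 8.17 ± 1.13 CPM (SD, n = 3 each), with a log2FC of -1.51 (adjusted p = 4.96e-08). SH2B3, the adaptor LNK that restrains JAK2, fell from 140 ± 8.25 to 71.0 ± 6.68 CPM (SD, n = 3 each), with a log2FC of -0.98 (adjusted p = 5.01e-08). PTPN1, a tyrosine phosphatase, was lower by a log2FC of -0.57 (adjusted p = 3.41e-06). The higher genes with the smallest adjusted p were SOCS6 at 0.86 (adjusted p = 3.03e-05), the phosphatase gene DUSP3 at 0.36 (adjusted p = 0.00262) and SOCS5 at 0.39 (adjusted p = 0.00730). SOCS5 lost its call without hyperoside replicate 1, at 0.32 and an adjusted p of 0.0547. SOCS1 was not called, at 0.26 (adjusted p = 0.109), but it passed with limma-trend on log2(FPKM + 1) and log2(FPKM + 0.1), at adjusted p of 0.0222 and 0.0196.

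**Figure D4:**
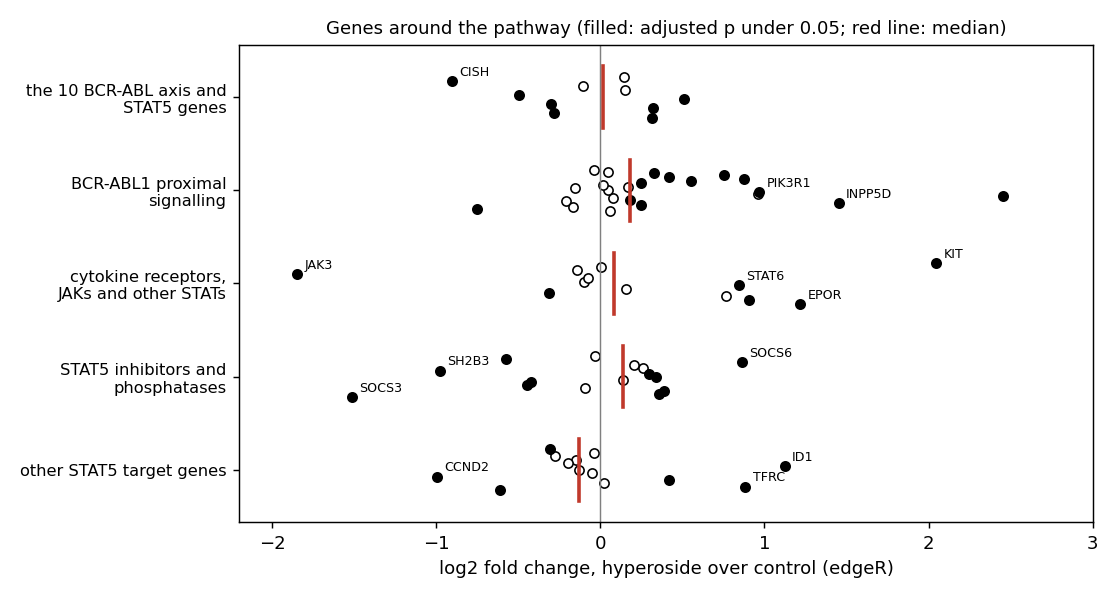
The log2FC (x axis, hyperoside over control, edgeR) of the 10 genes and of the tested genes in 4 lists around the pathway (rows); filled points passed an adjusted p of 0.05, red lines mark medians, and names are given for called genes of the text with large changes. Called genes lie on both sides of 0 in each row, and the named points run from JAK3 at -1.85 (at most 78 counts in a library) to KIT at 2.05.

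Of 16 further genes known as STAT5 targets, 13 were tested, and 3 were called lower and 3 higher (median log2FC -0.13). This was 46.2% called, near the 45.3% of all tested genes. The called genes of this list went in both directions. The list holds BCL6, which STAT5 is known to repress, so a count of directions does not describe STAT5 output. STAT5 activity was not measured. The lower genes were CCND2 and CCND3, which encode D-type cyclins of the G1 phase, and PIM2, a relative of PIM1. CCND2 fell from 91.4 ± 5.29 to 45.8 ± 3.18 CPM (SD, n = 3 each), with a log2FC of -0.995 (adjusted p = 4.77e-08). PIM2 fell from 152.1 ± 14.9 to 99.4 ± 11.98 CPM (SD, n = 3 each), with a log2FC of -0.61 (adjusted p = 3.07e-05), and CCND3 had a log2FC of -0.31 (adjusted p = 0.00513). The higher genes were ID1, an inhibitor of differentiation factors, at 1.12 (adjusted p = 3.81e-08), the transferrin receptor gene TFRC at 0.88 (adjusted p = 4.93e-07) and BCL6, a repressor that STAT5 is known to hold down, at 0.42 (adjusted p = 0.00585). The survival genes BCL2L1 and MCL1 were not called, at -0.05 and -0.15 (adjusted p = 0.618 and 0.123), and neither was MYC, at 0.02 (adjusted p = 0.851). PIM3 was not called, at -0.13 (adjusted p = 0.387), and its sign turned without control replicate 1 (0.03). The number called lower was 5 without control replicate 1 and 5 without hyperoside replicate 2. Among all tested genes it was 3618 and 3009 in these settings, in place of 3508.

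The label of the cells was checked against marker genes. GATA1, TAL1, globin genes and the other listed erythroid genes of K562 cells, 9 of 9, had counts in every library, and CDKN2A, which is deleted in K562 cells, had at most 1 count. The summed FPKM of the erythroid markers was 7657 to 9500 in the control libraries and 5540 to 6701 in the hyperoside libraries. This sum was mostly globin transcripts and does not describe the list as a whole. HBG1, HBG2 and HBE1 were lower in every hyperoside library, KLF1 (19.1 to 26.8 against 41.3 to 48.7 FPKM) and LMO2 (4.92 to 6.34 against 10.6 to 11.8 FPKM) were higher, and GATA1, TAL1 and HBZ overlapped between the groups. Summed markers of other cell types also separated the groups in FPKM as deposited, which is relative to unscaled library totals. For 4 epithelial genes the sums were 623.6 to 679 against 695.4 to 726.5 FPKM. The scaling factors of normalized CPM ran from 0.957 (control replicate 1) to 1.03 (hyperoside replicate 1), and separation after such scaling was not tested. Of the epithelial genes, KRT19 alone did not overlap (144.2 to 157.1 against 206.8 to 223.1). The sums of 5 lymphoid genes, of which CD3D held most, were 36.6 to 44.1 against 48.8 to 54.9 FPKM. Keratin genes and CD3D were present in all 6 libraries, MS4A1 had no count in the control libraries, and 4 fibroblast genes summed to 1.08 to 1.62 FPKM. The part of these shifts in the results for the 10 genes was not tested.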

How the data were processed

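Gene expression was measured by RNA-seq in 6 K562 libraries, 3 per group, with groups and replicate numbers taken from the titles of the samples. The submitters' processing notes name fastp, HISAT2, HTSeq and hg38; versions, annotation and strand setting were not given in the sources used here. The authors deposited raw gene counts, and FPKM values that used 1 whole-number length per gene in all 23241 genes with a count. Counts were tested with edgeR 4.0.16 under R 4.3.3 (filterByExpr with a minimum count of 10 and minimum total of 15, TMM, quasi-likelihood test, condition as the only term), adjusted after Benjamini and Hochberg (Benjamini-Hochberg) across 15095 genes, which held 99.95% of the counts. Standard errors are the size of the log2 fold change over the square root of F. Within-library FPKM measures were compared by two-sided exact permutation tests. The gene tests were run on simulated counts in which few genes changed, which does not check the scaling where many genes change. Replicates differed beyond counting error (chi-square per degree of freedom 6.34 to 23.1), so none was counted as a copy. The 10 genes and all lists were chosen with earlier results of these data known. Named genes are the 10, up to 3 called genes per direction and list, close homologues, and the 3 nearest profiles; CD3D, MS4A1, PTPN11, BCRP2, MAPKAPK3, SOCS2-AS1, and the uncalled JAK, STAT, BCL2L1, MCL1 and MYC values were named after their values were seen. Positions and shared stretches came from GENCODE 29 on GRCh38, promoters from RefSeq. Some list genes are not reported here by name. Protein sequences and the annotation columns were not used here. Alternatives used DESeq2 1.42.0 and limma 3.58.1.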

Additional observations from a re-analysis of the deposited data

How the results depend on the processing

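Of the 10 genes, 8 kept their direction and their side of the threshold in 15 alternatives each, and all 10 kept their direction. BCR and ABL1 passed an adjusted p of 0.05 in 4 of them, which gave log2 fold changes of 0.19 and 0.20 with library totals only, 0.19 and 0.19 with upper-quartile scaling, 0.18 and 0.20 with limma-trend on log2(FPKM + 1), and 0.19 and 0.20 with limma-trend on log2(FPKM + 0.1). In each of these, 5 of the 10 genes were called higher, while the genes called higher among all 15095 went from 3333 to 3726, 3666, 3563 and 3562 in the same order, and the median of all genes from 0.0032 to 0.0526, 0.044, 0.027 and 0.0486. Leaving out a library gave 0.11 to 0.20 for ABL1, with a call without control replicate 1, and 0.13 to 0.17 for BCR with no call. The DEG counts of 970 higher and 567 lower were 208 and 136 with limma-trend on log2(FPKM + 1). Adding 1 shrinks low values, and JAK3 moved from -1.85 to -0.20. With a library left out, the sign of the log2 fold change turned for ABL2, whose values ran from -0.0702 to 0.0780, and for PIM3, from -0.219 to 0.0337. At an adjusted p under 0.01, 7 in place of 11 proximal genes and 3 in place of 5 inhibitors were called higher. Among all tested genes the number called higher went from 3333 to 2327, and the 10 genes stayed at 3 higher and 4 lower. The STAT5 motif was found in 6.57% of promoter windows when the 250 upstream bases alone were searched. Same-numbered libraries of the groups did not deviate together (correlations -0.081 to -0.0327), so the numbers were not taken as pairs. The replicate block gave 6129 called genes in place of 6841 and changed none of the calls of the 10 genes. Of the named genes in the lists, CRK lost its call with it (adjusted p = 0.0508). The planned comparison of the STAT5A and STAT5B proteins was not run. Depth limits genes with few counts such as JAK3, and the 10 genes had at least 2436 counts in each library.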
